A study of Mus musculus with 12 samples.

Results

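Endothelial and angiogenesis genes were followed in the RNA of mouse embryonic testis. The group was defined by a list of 44 gene symbols, all of which were found among the 35976 symbols of the count tables, and no expression threshold entered the list, although it was drawn up with earlier results of these data known. They comprise 11 genes for junction and surface proteins of blood vessel cells, 4 VEGF ligands, 3 VEGF receptors, 5 angiopoietin and Tie genes, 2 Notch genes, 2 TGF-beta and BMP receptors, 6 peptide and lipid signalling genes, 7 transcription regulators and 4 secreted or cytoplasmic proteins. Pregnant outbred Swiss (RjOrl) females were gavaged with thiacloprid, called *thia* here, in olive oil at 6 mg/kg/day from E6.5 to E15.5, and control females received oil alone. F1 embryos were exposed in the womb, whereas F3 embryos descended from the treated females through males crossed in each generation to untreated, unrelated females, and were not exposed. The 4 groups, F1 control, F1 *thia*, F3 control and F3 *thia*, had 3 libraries each, and every library was made from the pooled testes of 3 E15.5 embryos. Breeding had been run more than once, and the labels do not give the round of a library. The defining genes *Cdh5*, *Pecam1*, *Tek* and *Kdr* were above 8 CPM in each of the 12 libraries (CPM, counts scaled to the size of each library with TMM factors over all libraries). This shows that they were detected and does not test the label of the group, to which they belong.

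The endothelium is the single layer of cells that lines blood and lymph vessels. Its cells are held together by VE-cadherin (*Cdh5*) and PECAM1, and they grow in response to VEGF ligands secreted by the surrounding tissue, which bind the receptor tyrosine kinases encoded by *Kdr*, *Flt1* and *Flt4*. Angiopoietins bind the receptor TEK to set vessel stability, Notch ligands such as DLL4 separate sprouting tip cells from stalk cells, and ETS and SOXF transcription factors drive much of the endothelial programme. In the fetal testis, endothelial cells migrate from the neighbouring mesonephros and assemble a male-specific coelomic vessel, a step tied to the partition of the gonad into cords. RNA from whole pools was measured, so fewer endothelial cells and less RNA per endothelial cell cannot be told apart.

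Promoter sequence was read for 5 genes of the group that stand for the F3 results below, 4 that were higher in F3 *thia* testis and *Ramp3*, which was lower. Each run holds the 150 bases before the RefSeq start in GRCm38.p6, 5′ to 3′ on the strand of the gene, and capitals mark GGAA or its reverse complement TTCC, the core bound by ETS factors such as ERG and FLI1. Positions are chr2:32646445-32646594 on the plus strand for *Eng*, chr11:49609529-49609678 on the plus strand for *Flt4*, chr4:118489850-118489999 on the minus strand for *Tie1*, chr12:58269259-58269408 on the minus strand for *Clec14a* and chr11:6658383-6658532 on the plus strand for *Ramp3*. The GENCODE M21 models of *Flt4* and *Tie1* begin upstream of these windows, and those of *Clec14a* and *Ramp3* begin within them.
Eng: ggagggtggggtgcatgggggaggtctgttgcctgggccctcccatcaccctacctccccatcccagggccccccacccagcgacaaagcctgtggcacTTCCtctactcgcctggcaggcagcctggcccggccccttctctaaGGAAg
Flt4: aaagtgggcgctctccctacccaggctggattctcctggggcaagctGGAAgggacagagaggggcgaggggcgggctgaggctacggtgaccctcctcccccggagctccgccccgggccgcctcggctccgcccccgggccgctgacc
Tie1: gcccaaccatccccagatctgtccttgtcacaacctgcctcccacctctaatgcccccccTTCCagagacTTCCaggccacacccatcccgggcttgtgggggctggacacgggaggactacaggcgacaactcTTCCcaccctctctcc
Clec14a: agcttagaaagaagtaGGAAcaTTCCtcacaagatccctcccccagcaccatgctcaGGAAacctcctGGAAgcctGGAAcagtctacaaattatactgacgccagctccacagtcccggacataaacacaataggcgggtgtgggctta
Ramp3: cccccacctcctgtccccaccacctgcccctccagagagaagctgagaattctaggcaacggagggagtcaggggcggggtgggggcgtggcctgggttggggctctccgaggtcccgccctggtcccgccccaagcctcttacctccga
The window of *Clec14a* held 5 such cores, *Tie1* 3, *Eng* 2 and *Flt4* 1, and *Ramp3* held 0. The core is common in any promoter, as 80.8% of all 32851 windows of this length held it on either strand, against 73.3% of the 30 windows that belong to 23 genes of the group. The longer ETS form AGGAAG, searched on both strands and containing the core, was in 11 of these 30 windows (36.7%) and in 19.7% of all windows. The GC box GGGCGG was in 14 windows (46.7%, against 28.6% of all). The hypoxia core ACGTG was in 0 of the 30 windows and in 11.2% of all windows. These matches describe the letters of the windows.

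Library totals ranged from 25081647 to 68996146 counts, so that 1 CPM stood for 25.1 to 69.0 counts. The smallest two-sided p that an exact permutation test can reach for 1 gene with 3 pools per group is 0.1. Replicates of a group were distinct libraries, with a chi-square per degree of freedom of 17.3 to 42.2 within the F1 groups, the F3 controls and the pair of F3 *thia* replicates 1 and 3. F3 *thia* replicate 2 stood apart from its group, at 90.7 and 101. It is the library with the highest erythroid sum, as shown with *Tal1* and *Lmo2* below. Skeletal muscle markers summed to 661 CPM in F1 *thia* replicate 2, and to 52.0 to 125 CPM in the F1 controls.

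Levels were compared between genes per kilobase of exon, as the mean of the 12 libraries. Lengths were those of all GENCODE M21 exons of a gene, whereas reads had been assigned to refGene genes, so the order of genes is approximate. *Vegfb*, a VEGF ligand, was the highest of the group at 29.3 CPM per kb. It was followed by *Cdh5* at 16.6 and by *Eng*, an auxiliary receptor of the TGF-beta family, at 15.8 CPM per kb. Among VEGF receptors *Kdr*, the main signalling receptor, was at 8.29 CPM per kb, *Flt4*, the receptor of lymphatic vessels, at 1.08, and *Flt1*, which acts largely as a trap for VEGF, at 0.689. *Ptprb*, a phosphatase of the Tie pathway, was the lowest at 0.674 CPM per kb. Summed over the group, the level per library was 973 to 1104 CPM in F1 control testis and 1005 to 1186 CPM in F1 *thia* testis. F3 control testis was lower, at 790 to 851 CPM, and F3 *thia* testis was at 1031 to 1113 CPM, a range that lay above that of F3 control testis and within the spread of the F1 libraries.

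**Figure D1:**
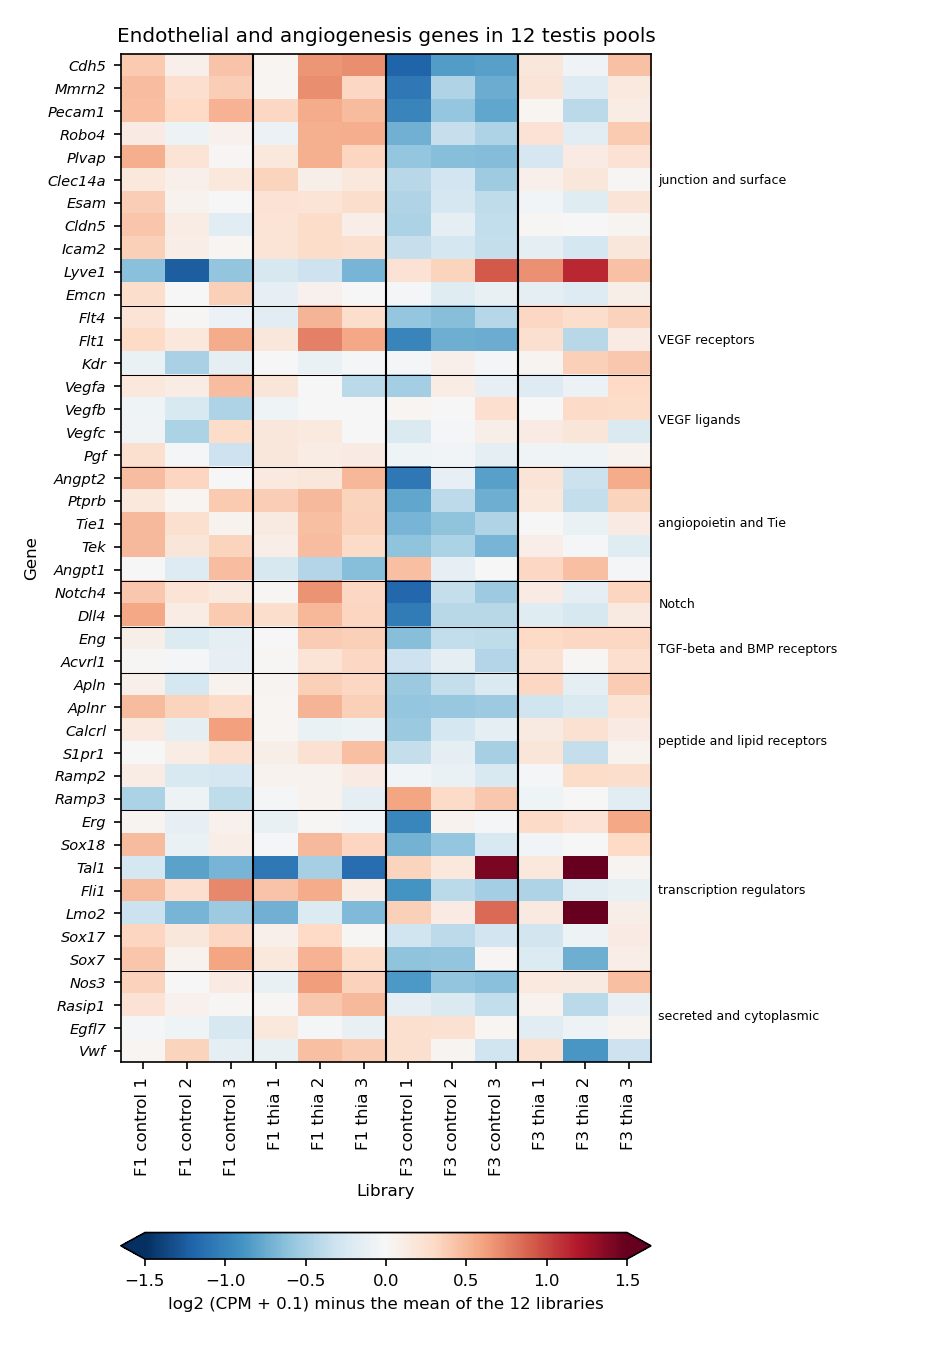
Level of each of the 44 genes in each of the 12 libraries, drawn as log2 (CPM + 0.1) minus the mean of the gene over the libraries, with genes in rows by role and libraries in columns by group (the colour scale stops at 1.5 in either direction). The 3 F3 control columns are blue for most vessel genes. In F3, *Tal1*, *Lmo2* and *Lyve1* are darkest red in *thia* replicate 2 and control replicate 3, whereas *Tal1* and *Lmo2* are close to their means in *thia* replicates 1 and 3.

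The first comparison asked whether exposure in the womb changed these genes in F1. None of the 44 genes passed the test in F1 *thia* against F1 control testis, with edgeR's quasi-likelihood test at an adjusted p of 0.15, where 0.0105% of the 19137 genes tested did, and DESeq2 called 0 of the 44 as well. At an unadjusted p under 0.05, 2 genes were higher and 1 was lower, against 4.63% higher and 4.13% lower of all genes. Without F1 *thia* replicate 1, 9 were higher and 2 lower (4.52% and 5.03% of all genes). The groups did not overlap in 3 genes, higher in *Acvrl1* and *Kdr* (6.55% of all genes) and lower in *Angpt1* (8.45% of all genes). The fold change was above 0 in 32 of the 44 genes (52.0% of all genes tested), with a median log2 fold change of 0.11 against 0.01 over all genes. The plot of fold changes shows F1 values close to 0 for most genes.

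*Angpt1*, the ligand that activates TEK, had the smallest unadjusted p in F1. It was at 10.2, 8.85 and 14.0 CPM in the 3 control libraries and at 8.58, 7.44 and 6.501 CPM in the *thia* libraries. All F1 *thia* values lay below the control values, and the log2 fold change was -0.53 ± 0.19 (SE, n = 3 per group, adjusted p = 0.518 by edgeR). *Eng* was at 66.3, 54.3 and 56.8 CPM in control and at 62.1, 81.3 and 80.2 CPM in *thia* libraries, so that the groups overlapped in replicate 1, with a log2 fold change of 0.35 ± 0.12 (adjusted p = 0.518). *Acvrl1*, the endothelial receptor for BMP9 and BMP10 that works with endoglin, was at 54.8, 53.4 and 49.6 CPM in control and at 54.8, 62.2 and 66.8 CPM in *thia* libraries. Its lowest *thia* value lay just above its highest control value, the log2 fold change was 0.23 ± 0.10, and the adjusted p was 0.556.

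The next genes by p in F1 were *Apln*, which encodes the peptide ligand of the apelin receptor, *Vegfb*, and *Robo4*, a guidance receptor of endothelial cells, with log2 fold changes of 0.29 ± 0.14, 0.23 ± 0.11 and 0.34 ± 0.17 (SE). *Apln* was at 11.5, 9.06 and 11.2 CPM in F1 control and at 11.1, 13.9 and 13.4 CPM in F1 *thia* libraries. *Vegfb* was at 44.7, 39.8 and 33.7 CPM and at 44.5, 46.5 and 46.3 CPM, and *Robo4* at 11.3, 9.78 and 10.9 CPM and at 9.74, 14.9997 and 15.1 CPM. In all 3 genes *thia* replicate 1 fell within or below the control values, so that the groups overlapped. *Kdr* was at 69.1, 52.7 and 67.5 CPM in F1 control and at 74.4, 69.3 and 72.4 CPM in F1 *thia* libraries, and its lowest *thia* value lay just above the highest control value. *Cdh5*, *Pecam1* and *Tek* overlapped between the F1 groups, with log2 fold changes of 0.21 ± 0.17, 0.04 ± 0.10 and -0.03 ± 0.13. *Vegfa*, the principal growth factor of vessels, had means of 53.0 ± 7.42 CPM in control and 42.9 ± 8.47 CPM in *thia* testis (SD, n = 3), a log2 fold change of -0.29 ± 0.15 that did not pass the test (adjusted p = 0.603 by edgeR).

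**Figure D2:**
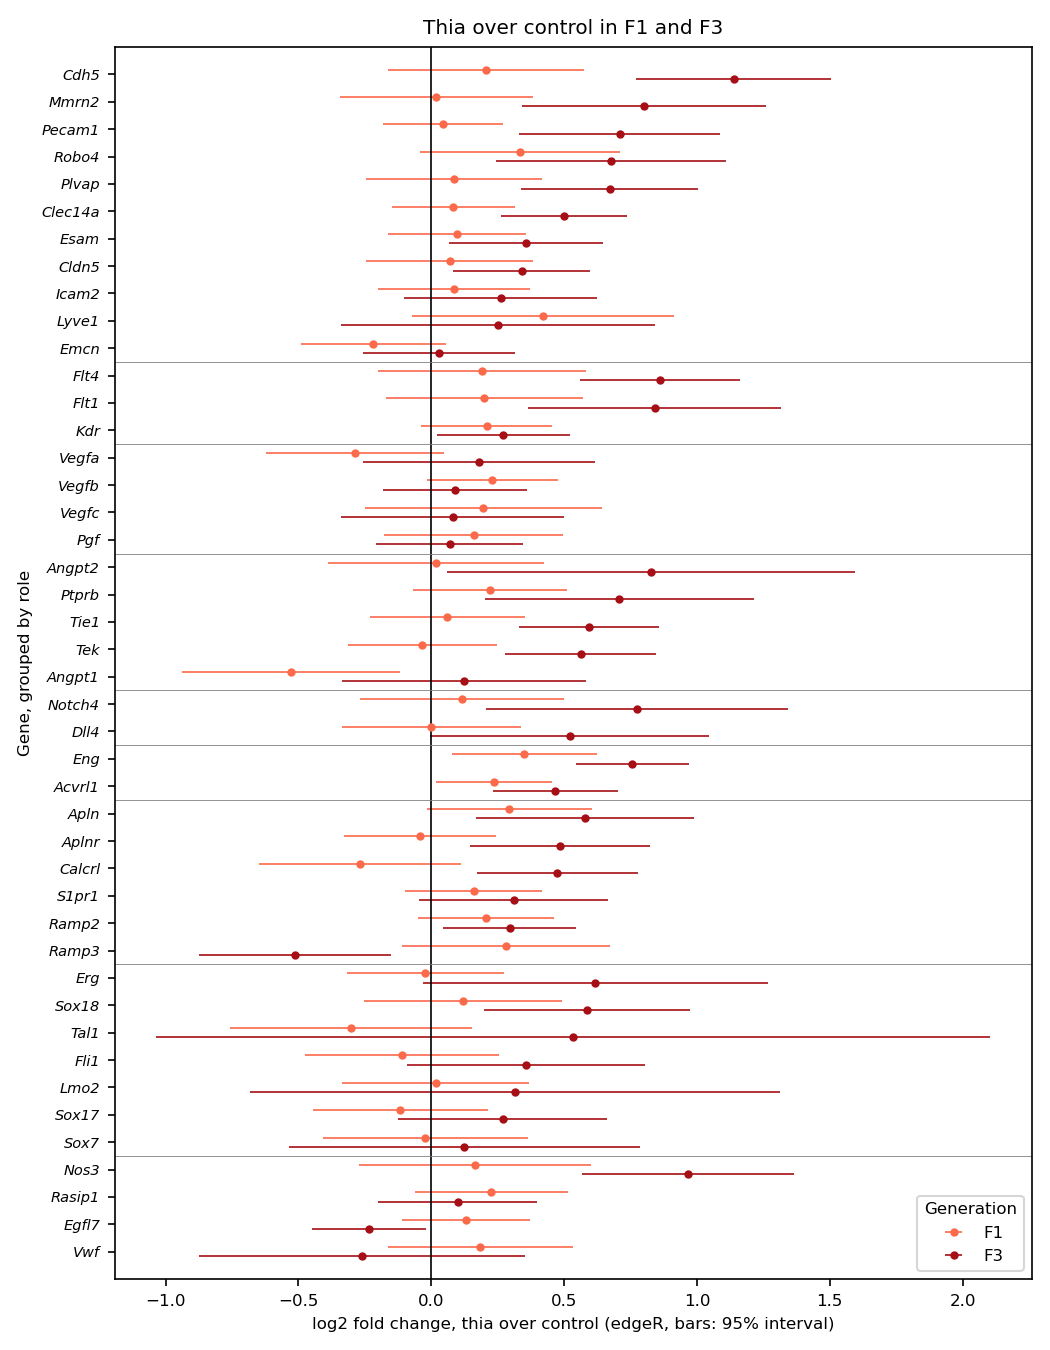
Log2 fold change of *thia* over control for each of the 44 genes in F1 (light red) and F3 (dark red), from edgeR, with bars for the 95% interval and 3 libraries per group, and genes on the vertical axis by role. F3 points lie to the right of 0 for 41 of 44 genes, with the VEGF ligands near 0 and *Ramp3* on the left.

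The second comparison asked whether descendants 2 generations further on, never exposed themselves, differed. In F3, most genes of the endothelial cell itself were higher in *thia* than in control testis, whereas the VEGF ligands were not told apart between the groups. The fold change was above 0 in 41 of the 44 genes (50.6% of all genes tested), with a median log2 fold change of 0.47 against 0.004 over all genes. At an unadjusted p under 0.05, 24 genes were higher and 2 were lower, *Ramp3* and *Egfl7*, against 11.0% higher and 10.0% lower of the 18539 genes tested. The *thia* values lay above all control values in 25 of the 44 genes, against 13.4% of all genes. None of the 44 passed edgeR's quasi-likelihood test at an adjusted p of 0.1, nor did any other gene (0% of genes tested), and the smallest adjusted p of the group, shared by *Eng*, *Cdh5* and *Flt4*, was 0.101. The Wald test of DESeq2 called 22 of the 44 higher and 1 lower at the same threshold, against 9.17% higher and 5.70% lower of the 15218 genes to which it gave an adjusted p. The call thus depends on the tool, and it also changed with 1 library, as 16 of the 44 genes and 6.82% of all genes passed without F3 *thia* replicate 2. At an unadjusted p under 0.05, 18 to 24 genes were higher when any 1 F3 library was left out, against 6.07% to 11.9% of all genes. Lower genes then numbered 1 to 2, against 5.81% to 11.7% of all genes. *Ramp3* was lower at this p under each of 16 settings, which reuse the same libraries.

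Most junction and surface genes were higher in F3 *thia* testis. All 11 had a log2 fold change above 0 (50.6% of all genes), with a median of 0.50. At an unadjusted p under 0.05, 8 of 11 were higher (11.0% of all genes). *Cdh5* (chr8:104101625-104144511, plus strand, GRCm38, GENCODE M21), the adhesion molecule of endothelial junctions, was at 28.0, 36.1 and 36.7 CPM in F3 control and at 72.4, 62.4 and 87.4 CPM in F3 *thia* libraries. Every *thia* value was well above every control value, and the difference was the largest of the group, 2.20-fold or 1.14 ± 0.16 on the log2 scale (SE, n = 3 per group, 95% interval 0.77 to 1.50, adjusted p = 0.101 by edgeR and 1.17e-08 by DESeq2). *Pecam1*, an adhesion molecule of endothelial cells, platelets and leukocytes, was at 20.7, 27.6 and 24.2 CPM in control and at 42.2, 31.3 and 44.9 CPM in *thia* libraries. The groups did not overlap, with the *thia* value nearest to the controls in replicate 2, and the log2 fold change was 0.71 ± 0.16 (adjusted p = 0.105 by edgeR and 0.00219 by DESeq2).

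*Clec14a*, a lectin-like receptor of endothelial cells, was at 14.2, 15.6 and 13.1 CPM in F3 control and at 20.0, 21.5 and 19.3 CPM in F3 *thia* libraries. Its groups were narrow and apart, and the log2 fold change was 0.50 ± 0.10 (adjusted p = 0.105 by edgeR and 0.00303 by DESeq2). *Mmrn2*, an extracellular ligand of CLEC14A, differed by 0.80 ± 0.20, *Robo4* by 0.68 ± 0.18 and *Plvap*, which forms the diaphragms of fenestrae, by 0.67 ± 0.14 on the log2 scale. These 3 genes were also apart between the groups. Smaller differences were seen in *Esam* and *Cldn5*, which are tight junction proteins, at 0.36 ± 0.12 and 0.34 ± 0.11. *Icam2*, *Lyve1* and *Emcn*, a sialomucin of capillaries and veins, overlapped between the groups, with log2 fold changes of 0.26, 0.25 and 0.03, and that of *Emcn* turned below 0 with upper quartile scaling.

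The 3 VEGF receptors were all higher at an unadjusted p under 0.05 (11.0% of all genes), but by unequal amounts. *Flt4* was at 5.74, 5.47 and 6.35 CPM in F3 control and at 10.7, 10.3 and 10.9 CPM in F3 *thia* libraries. The replicates of each group were close together and the groups far apart, with a log2 fold change of 0.86 ± 0.13 (adjusted p = 0.101 by edgeR and 1.79e-06 by DESeq2). *Flt1* was at 4.31, 5.18 and 5.15 CPM in control and at 10.3, 6.503 and 9.44 CPM in *thia* libraries, a log2 fold change of 0.84 ± 0.20, again with replicate 2 as the lowest *thia* value. *Kdr* was at 72.6, 77.8 and 72.8 CPM in control and at 76.3, 95.02 and 98.0 CPM in *thia* libraries. Here *thia* replicate 1 fell among the controls, and the log2 fold change was 0.27 ± 0.11 (adjusted p = 0.207 by edgeR).

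The 4 VEGF ligands, which are made mainly outside the endothelium, overlapped between the F3 groups. *Vegfa* was at 31.2, 47.9 and 40.7 CPM in control and at 38.8, 42.0 and 54.9 CPM in *thia* libraries, with a log2 fold change of 0.18 ± 0.19 and a 95% interval of -0.26 to 0.62 that leaves room for a difference in either direction. *Vegfb* differed by 0.09 (95% interval -0.18 to 0.36), *Vegfc*, the ligand of FLT4, by 0.08 (-0.34 to 0.50) and *Pgf*, the placental growth factor, by 0.07 (-0.21 to 0.35). None of the 4 reached an unadjusted p of 0.05 in F3, against 11.0% higher and 10.0% lower of all genes. DESeq2 called 0 of them, against 9.17% higher and 5.70% lower of all genes.

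In the angiopoietin and Tie system, the receptors were higher in F3 *thia* testis than in control testis. *Tie1*, an orphan receptor that partners TEK, was at 13.1, 14.0 and 15.54 CPM in control and at 21.2, 19.9 and 23.3 CPM in *thia* libraries, without overlap, and differed by 0.59 ± 0.11 on the log2 scale (adjusted p = 0.105 by edgeR and 0.00068 by DESeq2). *Tek* was at 9.43, 10.3 and 8.82 CPM in control and at 15.4, 14.1 and 12.7 CPM in *thia* libraries. Its groups were apart as well, with a log2 fold change of 0.56 ± 0.12 (adjusted p = 0.105 by edgeR and 0.00349 by DESeq2). *Ptprb* differed by 0.71 ± 0.22 without overlap. *Angpt2*, the endothelial antagonist of ANGPT1, differed by 0.83 ± 0.33 with 1 overlapping pair of values, and *Angpt1*, which comes from mural and mesenchymal cells, by 0.12 ± 0.20.

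Both TGF-beta and BMP receptors were higher. *Eng* was at 40.1, 48.5 and 48.0 CPM in F3 control and at 76.7, 77.3 and 77.2 CPM in F3 *thia* libraries. The *thia* pools were nearly equal, far above all controls, and *Eng* had the smallest p of the group in F3, with a log2 fold change of 0.76 ± 0.09 (95% interval 0.55 to 0.97, adjusted p = 0.101 by edgeR and 2.16e-08 by DESeq2). *Acvrl1* had means of 43.98 ± 4.52 CPM in control and 60.8 ± 5.35 CPM in *thia* testis (SD, n = 3), a log2 fold change of 0.47 ± 0.10 without overlap. In the Notch pair, *Notch4*, an endothelial Notch receptor, differed by 0.77 ± 0.24 and *Dll4* by 0.52 ± 0.22, both without overlap between the groups, and *Dll4* missed an unadjusted p of 0.05.

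Among peptide and lipid signalling genes, the adrenomedullin and CGRP receptor system was split. *Calcrl*, the receptor itself, was at 10.9, 13.4 and 14.5 CPM in F3 control and at 17.7, 18.8 and 17.5 CPM in F3 *thia* libraries, and *Ramp2*, the accessory protein that gives it affinity for adrenomedullin, differed by 0.29 ± 0.11 on the log2 scale without overlap. *Ramp3*, the other adrenomedullin accessory protein, ran the opposite way. It was at 6.79, 5.501 and 5.95 CPM in control and at 4.27, 4.52 and 4.01 CPM in *thia* libraries, all *thia* values below all control values, with a log2 fold change of -0.51 ± 0.15 (adjusted p = 0.142 by edgeR and 0.0479 by DESeq2). *Apln* and its receptor gene *Aplnr* were higher together, by 0.58 ± 0.18 and 0.49 ± 0.14 without overlap. *S1pr1*, the sphingosine-1-phosphate receptor that stabilises junctions, differed by 0.31 ± 0.15 with overlapping groups.

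Of 7 transcription regulators, 1 was higher at an unadjusted p under 0.05 (14.3%), near the 11.0% of all genes. It was *Sox18*, a SOXF factor of vessel development, by 0.59 ± 0.17 on the log2 scale. *Erg*, the ETS factor that maintains endothelial identity, was at 3.91, 8.12 and 7.73 CPM in F3 control and at 9.52, 9.12 and 11.71 CPM in F3 *thia* libraries. Its groups did not overlap, but control replicate 1 was low and the log2 fold change of 0.62 ± 0.28 did not pass the test (adjusted p = 0.256 by edgeR). *Fli1*, *Sox17* and *Sox7* differed by 0.36, 0.27 and 0.12.

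*Tal1* and *Lmo2*, which encode partners in blood and endothelial progenitors and are also strongly expressed in red cell precursors, followed single libraries. *Tal1* was at 18.4, 16.3 and 39.1 CPM in F3 control and at 16.2, 76.6 and 14.99 CPM in F3 *thia* libraries. *Lmo2* was at 26.8, 22.8 and 37.8 CPM in control and at 23.0, 64.1 and 22.2 CPM in *thia* libraries. *thia* replicate 2 and control replicate 3 were high for both genes, and without *thia* replicate 2 the log2 fold changes went from 0.53 to -0.66 for *Tal1* and from 0.32 to -0.37 for *Lmo2*. The same 2 libraries had the highest macrophage sums of F3, 247.6 and 238 CPM. The sum of 8 erythroid markers, globins among them, was highest in *thia* replicate 2, at 75182 CPM. Leaving out both libraries, an alternative chosen after the data were seen, left 25 of the 44 genes higher and 2 lower at an unadjusted p under 0.05 (11.9% and 9.10% of all genes), and 7 then passed edgeR's adjusted threshold, as did 1.10% of all genes.

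The 4 secreted and cytoplasmic proteins were split. *Nos3*, the endothelial nitric oxide synthase, was at 3.29, 3.99 and 3.88 CPM in F3 control and at 6.75, 6.68 and 8.36 CPM in F3 *thia* libraries. All *thia* values were above all control values, and the log2 fold change of 0.96 ± 0.17 was the second largest of the group (adjusted p = 0.105 by edgeR and 6.22e-05 by DESeq2). *Egfl7*, a secreted matrix protein of vessels, was at 44.1, 43.6 and 38.0 CPM in control and at 33.4, 35.2 and 38.2 CPM in *thia* libraries, a log2 fold change of -0.24 ± 0.09 in which *thia* replicate 3 and control replicate 3 overlapped. *Vwf*, the clotting factor stored in endothelial granules, ranged from 36.8 CPM in *thia* replicate 2 to 79.7 CPM in control replicate 1 and overlapped between the groups. *Rasip1*, a regulator of vessel lumen formation, differed by 0.10 ± 0.13.

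**Figure D3:**
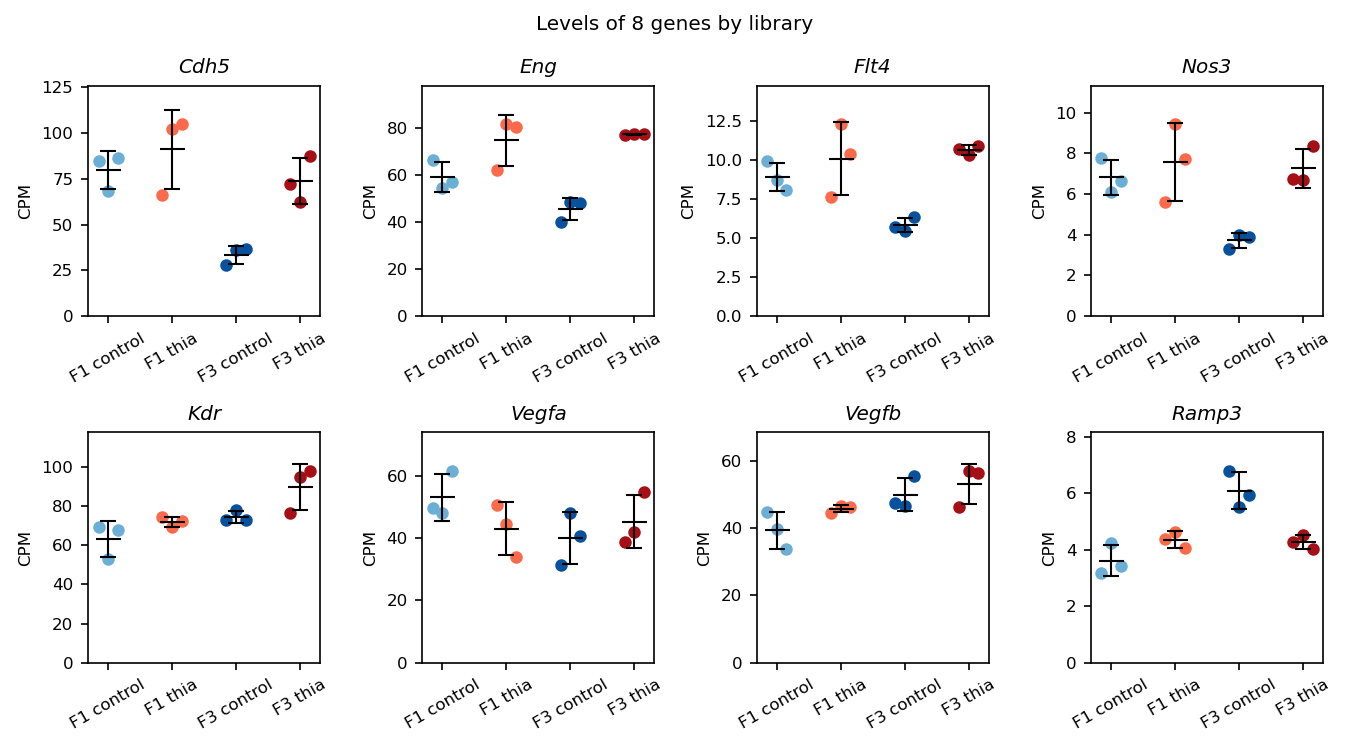
CPM of 8 genes in each library (points) with the group mean and SD (horizontal mark and bars, n = 3) for F1 control, F1 *thia*, F3 control and F3 *thia* testis, each axis starting at 0. *Cdh5*, *Eng*, *Flt4* and *Nos3* are lowest in F3 control testis and apart from F3 *thia* testis, *Kdr*, *Vegfa* and *Vegfb* overlap between the F3 groups, and *Ramp3* is highest in F3 control testis.

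How the F3 differences stood beside those of 10 chosen pan-endothelial genes (*Cdh5*, *Pecam1*, *Tie1*, *Tek*, *Esam*, *Erg*, *Egfl7*, *Robo4*, *Clec14a* and *Mmrn2*) was described by dividing each level by their geometric mean in the same library. That mean was 12.5, 15.8 and 14.4 CPM in F3 control and 21.4, 19.1 and 23.0 CPM in F3 *thia* libraries, against 21.5 to 24.8 CPM in F1 control and 21.8 to 26.0 CPM in F1 *thia* libraries. The relative levels carry no test, because the 10 genes belong to the group. In F3, 8 of the 10 were higher and 1 lower at an unadjusted p under 0.05 by edgeR, against 11.0% and 10.0% of all genes. Their median log2 fold change was 0.61, against 0.47 over the 44 genes, so the divisor need not stand for the endothelium as a whole. Relative to the divisor, 29 of the 44 genes overlapped between the F3 groups, 4 were higher in all *thia* libraries and 11 were lower in all *thia* libraries. On this relative scale 0.372% of all genes tested were higher and 64.3% lower without overlap, and the divisor itself was higher in every F3 *thia* than in every F3 control library.

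The 4 that stayed higher were *Cdh5*, by 0.56, *Nos3*, by 0.37, *Flt4*, by 0.28, and *Eng*, by 0.19 on the log2 scale. *Sox18*, which is outside the divisor, had a relative difference of 0.02. *Tie1* was at 0.02 and *Tek* at -0.02, but both belong to the divisor, as do *Cdh5* and *Egfl7*, so their values are partly set against themselves. The lowest relative differences were those of *Ramp3* at -1.07, *Vwf* at -0.88, *Egfl7* at -0.81 and *Emcn* at -0.55. *Vegfa*, at -0.39, *Vegfc*, at -0.49, and *Pgf*, at -0.50, were also lower in all *thia* libraries, since their CPM differed little while the pan-endothelial level was higher. In F1, *Eng*, by 0.26, and *Apln*, by 0.20, were higher in all *thia* libraries on this scale. *Angpt1*, at -0.60, *Emcn*, at -0.30, and *Sox17*, at -0.20, were lower in all of them. The share of all genes without overlap on this scale was not computed for F1. For CPM in F1 it was 6.55% higher and 8.45% lower, so no reading of the group is drawn from these genes.

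**Figure D4:**
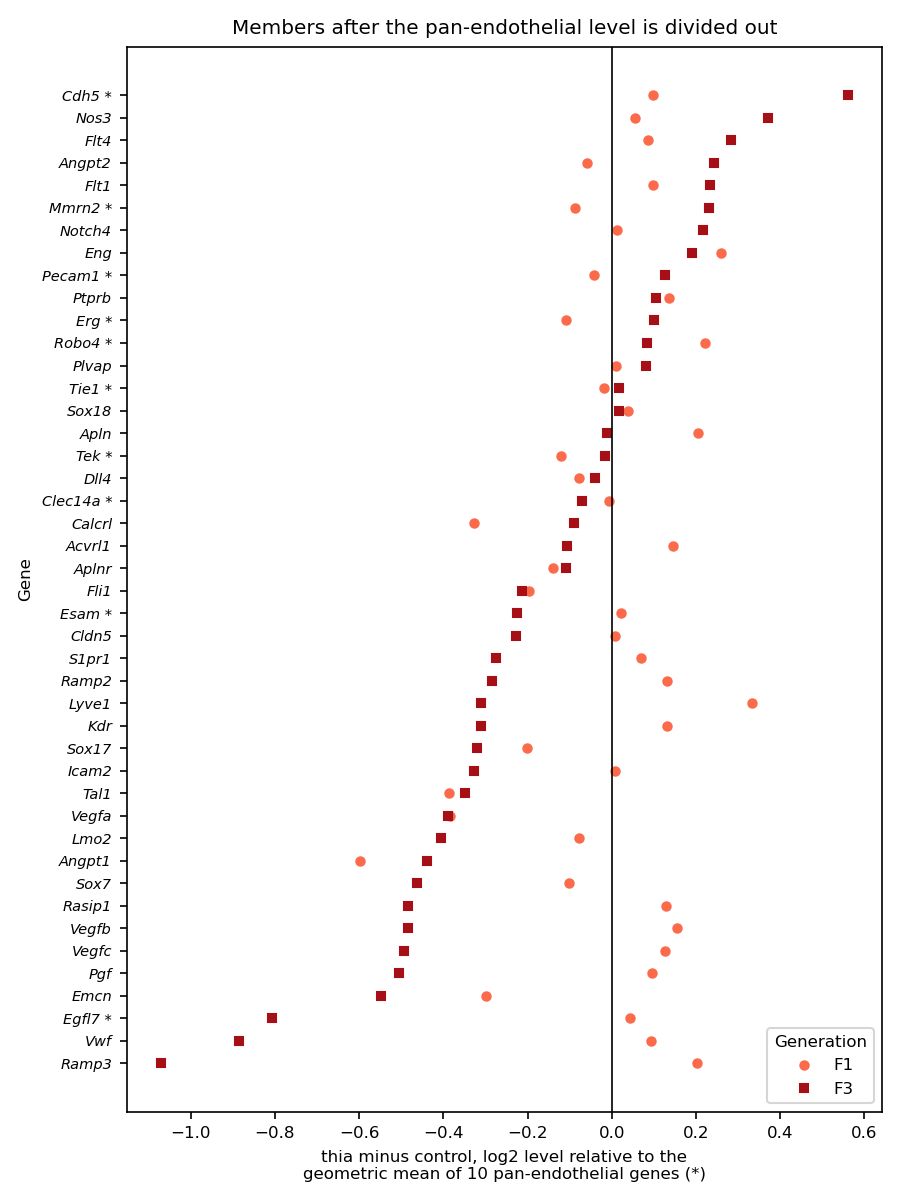
Difference between *thia* and control testis in the log2 level of each gene relative to the geometric mean of 10 pan-endothelial genes (starred), in F1 (light circles) and F3 (dark squares), 3 libraries per group, with genes ordered by the F3 value. *Cdh5* lies highest in F3 at 0.56 and *Ramp3* lowest at -1.07, while F1 points lie between -0.60 and 0.33.

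Whether the *thia* effect differed between generations was tested directly, in 1 fit of the 12 libraries. None of the 44 genes passed edgeR's adjusted threshold of 0.1, where 0.00510% of 19626 genes did, and 15 were higher and 2 lower at an unadjusted p under 0.05 (7.93% and 6.10% of all genes). DESeq2 called 6 genes with a higher effect in F3 (*Cdh5*, *Pecam1*, *Mmrn2*, *Tek*, *Calcrl* and *Nos3*) and 1 with a lower effect (*Ramp3*), against 2.85% and 1.89% of all genes. The effect on *Cdh5* was 0.95 ± 0.26 larger in F3 on the log2 scale (adjusted p = 0.248 by edgeR and 0.0366 by DESeq2), that on *Calcrl* 0.76 ± 0.24, on *Pecam1* 0.68 ± 0.20, on *Tek* 0.61 ± 0.18 and on *Clec14a* 0.44 ± 0.14 larger. For *Ramp3* the difference between the effects was -0.78 ± 0.22. For *Kdr* the difference was 0.08 ± 0.16 and for *Vegfa* 0.48 ± 0.26, neither past the threshold. The median difference over the group was 0.43, against 0.02 over all genes.

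Control testis itself differed between the generations. Here 35 of the 44 genes passed edgeR's test at an adjusted p of 0.1, 29 lower and 6 higher in F3 control than in F1 control testis, but 42.3% of all 19626 genes passed it too. The generation cannot be told apart from other differences between the sets of libraries. The median log2 fold change was -0.50 over the group and -0.02 over all genes. *Pecam1*, which had the smallest p of the group, fell from 55.6 ± 4.46 to 24.1 ± 3.42 CPM (SD, n = 3, log2 fold change -1.20 ± 0.14, adjusted p = 0.000186 by edgeR). *Cdh5* fell from 79.8 ± 10.2 to 33.6 ± 4.88 CPM, *Tek* from 18.2 ± 1.95 to 9.52 ± 0.744 CPM and *Tie1* from 25.7 ± 3.87 to 14.2 ± 1.23 CPM. Each of these 3 was lower in every F3 control library.

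By role, all 11 junction and surface genes passed, 10 lower and *Lyve1* higher, where 42.3% of all genes passed. So did *Flt1* and *Flt4* among the VEGF receptors, *Tek*, *Tie1*, *Angpt2* and *Ptprb*, both Notch genes, and *Eng* and *Acvrl1*, all lower. Lower too were *Calcrl*, *S1pr1* and *Aplnr*, *Fli1*, *Sox7*, *Sox17* and *Sox18*, and *Nos3* and *Rasip1*. The 6 that were higher in F3 controls were *Lyve1* (log2 fold change 1.35 ± 0.26), *Tal1* (1.33 ± 0.55), *Lmo2* (0.99 ± 0.35), *Ramp3* (0.75 ± 0.16), *Vegfb* (0.34 ± 0.11) and *Egfl7* (0.28 ± 0.10). *Kdr*, *Vegfa*, *Vegfc*, *Pgf*, *Angpt1*, *Ramp2*, *Apln*, *Erg* and *Vwf* did not pass.

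Most genes that passed are given here by their control libraries, F1 first. Among junction genes, *Mmrn2* was at 14.1, 12.2 and 13.2 CPM in F1 control and at 4.81, 7.42 and 6.03 CPM in F3 control libraries (log2 fold change -1.11 ± 0.19). *Plvap* was at 26.4, 20.9 and 18.3 CPM and at 12.03, 11.6 and 11.5 CPM (-0.91 ± 0.16). These 2 genes, like *Cdh5* and *Pecam1*, were clearly apart. *Robo4*, with F3 control values of 6.27, 8.12 and 7.47 CPM, differed by -0.55 ± 0.19, and *Clec14a*, at 21.3, 20.1 and 21.2 CPM in F1 control, by -0.54 ± 0.10. *Esam* was at 29.0, 23.3 and 22.3 CPM and at 16.4, 18.8 and 17.3 CPM (-0.51 ± 0.12), and *Icam2* at 11.2, 9.34 and 8.94 CPM and at 6.82, 7.28 and 6.78 CPM (-0.50 ± 0.14). Among the 11 junction and surface genes, *Cldn5* had overlapping control groups, at 24.8, 20.1 and 16.5 CPM and at 13.3, 16.8 and 14.4 CPM (-0.46 ± 0.14). *Emcn* had the smallest difference of these genes, from 15.8 ± 1.93 to 12.6 ± 0.66 CPM (SD, n = 3), and no longer passed with upper quartile scaling or without any 1 of F1 control replicates 1 and 3 and F3 control replicates 2 and 3 (adjusted p of 0.125 to 0.166 by edgeR).

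Most receptors of the vessel wall were lower in F3 control testis too, as were the ligand genes *Angpt2* and *Dll4*. The 4 VEGF ligands had a median log2 fold change of -0.03, against -0.02 over all genes. *Flt1* was at 10.7, 9.68 and 12.8 CPM in F1 control and at 4.31, 5.18 and 5.15 CPM in F3 control libraries (-1.18 ± 0.20), and *Flt4* at 9.94, 8.71 and 8.12 CPM and at 5.74, 5.47 and 6.35 CPM (-0.61 ± 0.16). *Kdr* went the other way without passing the test, from 63.1 to 74.4 CPM on average. *Angpt2* was at 5.51, 4.97 and 3.97 CPM and at 1.83, 3.64 and 2.21 CPM (-0.91 ± 0.28), and *Ptprb* at 9.62, 8.81 and 11.3 CPM and at 4.99, 6.55 and 5.13 CPM (-0.83 ± 0.18). *Notch4* was at 9.91, 8.63 and 8.31 CPM and at 3.26, 5.82 and 5.07 CPM (-0.92 ± 0.22), and its ligand gene *Dll4* at 10.6, 7.66 and 9.31 CPM and at 3.35, 5.26 and 5.29 CPM (-0.99 ± 0.19). F3 control replicate 1 was the lowest library for *Angpt2*, *Notch4*, *Dll4* and *Flt1*. *Eng* and *Acvrl1* differed by less, -0.38 ± 0.12 and -0.26 ± 0.10.

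*Aplnr* was at 37.4, 34.0 and 32.9 CPM in F1 control and at 18.0, 18.1 and 18.3 CPM in F3 control libraries, a log2 fold change of -0.94 ± 0.14 between tight groups. *S1pr1* was at 39.9, 43.5 and 47.5 CPM and at 31.2, 36.1 and 28.3 CPM (-0.45 ± 0.14). *Calcrl* overlapped in 1 pair of libraries and differed by -0.55 ± 0.17. Among the transcription regulators that were lower, *Fli1* had the largest difference, at 10.2, 8.73 and 12.1 CPM and at 3.88, 5.47 and 5.10 CPM (-1.10 ± 0.18), whereas *Erg*, its close relative, was at 8.05, 7.15 and 8.16 CPM and at 3.91, 8.12 and 7.73 CPM and did not pass. All 3 SOXF genes were lower, with log2 fold changes of -0.73 ± 0.24 for *Sox7*, -0.67 ± 0.18 for *Sox18* and -0.60 ± 0.15 for *Sox17*. *Nos3* was at 7.76, 6.09 and 6.64 CPM and at 3.29, 3.99 and 3.88 CPM (-0.87 ± 0.20), and *Rasip1* at 35.9, 32.2 and 31.3 CPM and at 27.8, 26.5 and 23.8 CPM (-0.35 ± 0.14).

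Because this comparison and the F3 comparison share the F3 control libraries, and it shares the F1 control libraries with the F1 comparison, the opposite signs in F3 are given as values only. *Cdh5*, for example, was at 79.8, 91.0, 33.6 and 74.05 CPM in F1 control, F1 *thia*, F3 control and F3 *thia* testis, and *Eng* at 59.1, 74.6, 45.5 and 77.1 CPM. *Ramp3* was at 3.61, 4.36, 6.08 and 4.27 CPM.

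Markers of other cells differed between the same libraries, and no marker of these lists was at 0 in any library. The sum of 8 erythroid markers was 4678 to 14225 CPM in F1 control, 7385 to 16761 CPM in F1 *thia*, 54461 to 59431 CPM in F3 control and 38344 to 75182 CPM in F3 *thia* libraries. The sum of 10 macrophage markers was 73.6 to 88.3 CPM and 92.4 to 113 CPM in the F1 groups and 144 to 238 CPM and 147 to 248 CPM in the F3 groups. *Lyve1*, a hyaluronan receptor of lymphatic endothelium that fetal macrophages also carry, was at 3.81, 2.46 and 3.89 CPM in F1 control and at 6.89, 7.50 and 11.3 CPM in F3 control libraries, and in F3 *thia* libraries it was at 9.57, 13.1 and 8.10 CPM. Within F3 its highest values were in control replicate 3 and *thia* replicate 2, the libraries with the highest macrophage sums. The part of the erythroid and macrophage sums in the results for *Tal1*, *Lmo2* and *Lyve1* was not tested.

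In F3, the Leydig marker sum was 2191 to 3621 CPM in control and 3842 to 6971 CPM in *thia* libraries, and the germ cell sum was 532 to 805 CPM and 352 to 633 CPM, in overlapping ranges. Sertoli markers summed to 326 to 456 CPM and 327 to 739 CPM, platelet markers to 17.1 to 22.6 CPM and 17.3 to 39.3 CPM, mesonephros markers to 72.6 to 87.7 CPM and 60.5 to 81.8 CPM, adrenal markers to 39.8 to 58.0 CPM and 57.8 to 120 CPM, and skeletal muscle markers to 110 to 295 CPM and 99.8 to 223 CPM. The Leydig sum was thus higher in every F3 *thia* library. Of its 6 genes, *Lhcgr*, *Cyp17a1* and *Star* did not overlap between the F3 groups and *Cyp11a1*, *Insl3* and *Hsd3b1* did. The part of the Leydig markers in the result was not tested.

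**Figure D5:**
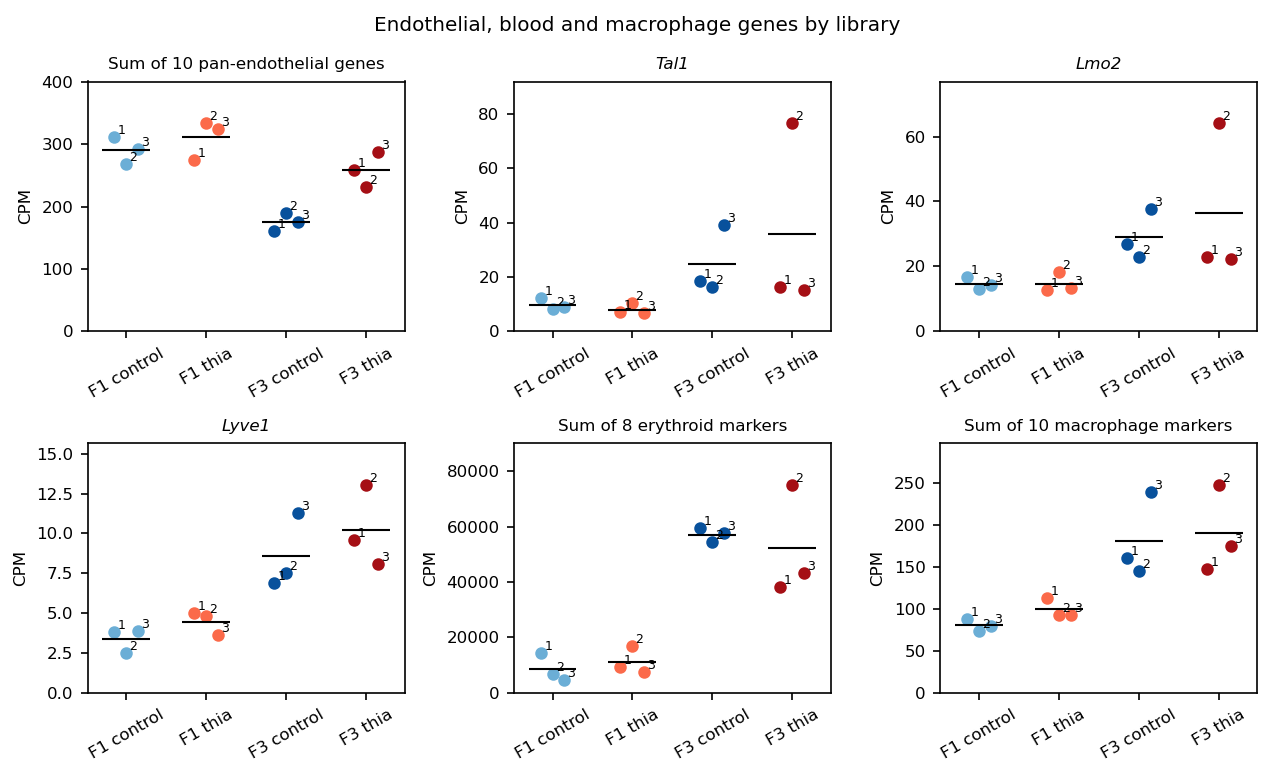
CPM in each library (points, numbered by replicate) with the group mean (line) for the sum of 10 pan-endothelial genes, *Tal1*, *Lmo2*, *Lyve1* and the sums of 8 erythroid and 10 macrophage markers, each axis starting at 0. The pan-endothelial sum is 161 to 190 CPM in F3 control and 231 to 288 CPM in F3 *thia* testis, whereas *Tal1* and *Lmo2* peak in F3 *thia* replicate 2.

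Further genes of the endothelial pathways were taken from a list of 61 symbols, of which 60 were tested in F1 and in F3. None passed the adjusted threshold with edgeR in F1 or in F3. At an unadjusted p under 0.05, 2 were higher and 1 lower in F1, which is no more than the share of all genes (4.63% and 4.13%), and DESeq2 called 0 (0.488% higher and 0.525% lower of all genes). In F3, 18 were higher and 1 lower (*Arhgap29*), against 11.0% and 10.0% of all genes, with a median log2 fold change of 0.26. DESeq2 called 17 higher and 0 lower of the 58 to which it gave an adjusted p, against 9.17% and 5.70% of all genes. The smallest p in F1 belonged to *Pdpn*, a mucin of lymphatic endothelium that other testis cells may carry (log2 fold change -0.39 ± 0.13), *Stab1*, a scavenger receptor of sinusoidal endothelium and macrophages (0.44 ± 0.16), *Gata2*, a haematopoietic and endothelial transcription factor (0.40 ± 0.16), and *Gpihbp1*, which anchors lipoprotein lipase on capillaries (0.34 ± 0.17). In F3 they were *Thbd*, the anticoagulant thrombomodulin (0.60 ± 0.11), *Cd93*, an endothelial lectin-like receptor (0.91 ± 0.17), *Heg1*, a receptor of the cerebral cavernous malformation pathway (0.66 ± 0.12), and *Adgrf5*, an adhesion receptor of capillaries (0.75 ± 0.15), each with an adjusted p of 0.105 by edgeR. The summed level of the list was 2430 to 2685 CPM in F3 control and 2881 to 3238 CPM in F3 *thia* libraries.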

How the data were processed

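RNA of 12 pools of E15.5 testes was sequenced with a strand-specific kit in paired-end mode. Reads were aligned by the authors to mm10 (HISAT2 2.1.0) and assigned to refGene genes (featureCounts), and the authors deposited raw counts for 35976 symbols, with no normalization. Whether pairs or reads were counted is not given in the sources used here. The labels gave the groups.

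The tests used edgeR 4.0.16 in R 4.3.3 (quasi-likelihood test, filterByExpr at a minimum count of 10, TMM, Benjamini-Hochberg adjustment over all genes tested) and DESeq2 1.42.0 as an alternative; the pipeline was tested on simulated data. The FDR was 0.15 in F1 and 0.1 elsewhere. CPM used TMM over 12 libraries; relative levels used log2 (CPM + 0.1). Exon lengths came from GENCODE M21 and promoters from RefSeq. Alternatives were DESeq2, other scalings and filters, bias-adjusted deviances, an adjusted p under 0.05, a replicate block, 1 fit of 12 libraries, removal of the length trend by loess (span 0.3), and omission of libraries.

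The genes of the group and all lists were chosen with earlier results of these data known. Values per library are given for *Cdh5*, *Pecam1*, *Kdr*, *Tek*, *Vegfa*, for the 6 genes with the smallest p in F1, F3 and the difference and for genes that illustrate a group, and of the further list the 4 with the smallest p in F1 and in F3; *Tal1*, *Lmo2*, *Lyve1* and others beyond this rule were shown after their values were seen. Figures were drawn with Python 3.11.15 and matplotlib 3.10.9. P-values set each group difference against the spread between pools, as estimated with information from all genes.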

Additional observations from a re-analysis of the deposited data

How the results depend on the processing

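At 3 pools per group, edgeR's adjusted call for the 44 genes in F3 was the result that moved most. The number past the threshold, 0, became 23 with DESeq2 (2262 of all genes), 19 in 1 fit of 12 libraries (1936), 12 without a low-count filter (569), 7 with upper quartile scaling (520), 7 with at least 10 counts in every library (333), 3 with bias-adjusted deviances (81) and 7 with F3 control replicate 3 and *thia* replicate 2 both left out (207, chosen after seeing the data), and 0 to 16 when single libraries were left out (0 to 1294). The calls thus moved over all genes and not in these 44 alone. The smallest adjusted p lay just above the threshold, at 0.101, and the cause of these moves was not tested. Genes higher at an unadjusted p under 0.05 numbered 18 to 24 without single libraries (6.07% to 11.9% of all genes), and lower 1 to 2 (5.81% to 11.7%). Lower genes numbered 1 with DESeq2 (5.38%), without a filter (5.90%) and with the replicate block (8.86%). The median log2 fold change was 0.34 to 0.51 without single libraries. In the difference, 7 genes passed with DESeq2 (4.74% of all genes). Genes lower numbered 1 without a filter (3.49%) and 1 to 2 without single libraries (4.02% to 6.83%). In F1, genes higher numbered 4 without a filter (4.46% of all genes), 1 with the block (4.07%) and 1 in 1 fit of 12 libraries (4.09%). Without single libraries they numbered 0 to 9 (3.37% to 5.19%), and the 9 arose without F1 *thia* replicate 1 (4.52%). Genes lower numbered 2 without a filter (3.64%) and 0 to 3 without single libraries (1.78% to 6.54%). In the control comparison, genes higher numbered 3 to 7 without single libraries (17.2% to 21.3% of all genes).

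Among single genes, 94 of the F3 values passed the threshold under an alternative, and 41 values of the control comparison no longer did. Some log2 fold changes changed sign when single libraries were left out. In F1 the ranges were -0.018 to 0.11 for *Pecam1* and -0.13 to 0.054 for *Tek*. In F3 they were -0.070 to 0.087 for *Emcn*, -0.0064 to 0.32 for *Angpt1*, -0.017 to 0.21 for *Rasip1*, -0.096 to 0.38 for *Sox7*, -0.0012 to 0.20 for *Vegfc*, -0.37 to 0.57 for *Lmo2* and -0.66 to 1.05 for *Tal1*, and the last 2 changed sign without *thia* replicate 2. *Emcn* was also at -0.0021 with upper quartile scaling and at -0.0076 with the length trend removed, and *Angpt1* was at -0.039, *Lmo2* at -0.13 and *Tal1* at -0.14 with F3 control replicate 3 and *thia* replicate 2 left out. The difference for *Kdr* was -0.080 with the length trend removed. The labels do not say whether replicate numbers pair the samples. Same-numbered control and *thia* deviations correlated at -0.11 to -0.003 in F1 and at -0.54 to 0.29 in F3. Differently numbered ones correlated at -0.067 to 0.12 and at -0.53 to 0.60. Deviations were centred within groups of 3, so these values cannot decide whether same-numbered pools shared a round. With the replicate block, F3 had 24 genes higher and 1 lower at an unadjusted p under 0.05 (9.63% and 8.86% of all genes), and 0 past the adjusted threshold.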

Other observations

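Pericytes, the mural cells that wrap capillaries, were described by 10 marker genes outside the group. In F3, 4 of 10 were higher in *thia* than in control testis at an unadjusted p under 0.05 and 0 were lower (11.0% and 10.0% of all genes). None passed the adjusted threshold of edgeR. DESeq2 called 4 higher and 0 lower of the 9 to which it gave an adjusted p (9.17% and 5.70% of all genes). *Pdgfrb*, the receptor that recruits pericytes, was at 90.2, 102 and 103 CPM in F3 control and at 124, 110 and 140 CPM in F3 *thia* libraries, without overlap (log2 fold change 0.34). *Cspg4* and *Notch3*, a proteoglycan and a Notch receptor of mural cells, had log2 fold changes of 0.80 and 0.64, without overlap, while those of *Kcnj8* and *Des* were -0.29 and -0.23 with overlapping groups. The summed level of the list was 413 to 473 CPM in F1 control, 464 to 524 CPM in F1 *thia*, 340 to 402 CPM in F3 control and 434 to 508 CPM in F3 *thia* libraries. In F1, 2 of the 10 were higher and 0 lower at an unadjusted p under 0.05, against 4.63% and 4.13% of all genes. *Des* had its highest F1 count, 2817, in *thia* replicate 2, the library with 661 CPM of skeletal muscle markers. The part of skeletal muscle in the F1 result was not tested.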
